A study of Mus musculus with 7 samples.

Results

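T cell receptor alpha variable segments, the Trav genes, were followed across 7 libraries of messenger RNA labelled as CD8+ T cells. They were taken as every symbol of the deposited table that begins with Trav and was above 0 in at least 1 library. That gave 103 of 130 Trav symbols, among 29687 symbols of any kind above 0, and the other 27 were listed at 0 in every library. Just inside that limit were Trav15d-2-dv6d-2 and Trav15n-2, which reached 0.25 TPM, and Trav13d-3, which reached 0.52 TPM. The cells had been taken from ascites fluid in mouse models of peritoneal metastasis, and the series as a whole concerns mannose given with an antibody against PD-1 in ovarian cancer. Its libraries of these cells were 3 from mice given propionate together with butyrate, fatty acids that gut bacteria make, and 4 control libraries labelled as having no treatment. One treated column bears a number that none of the treated samples has, and it is called the third treated library. The mouse strain, age, sex, tumour line and doses, and whether each library came from a separate animal, are not given in the sources used here, so p-values measure only the spread between these libraries, which may be technical. TPM is a level per transcript length within a fixed library total, and the sequencing depth behind it was unknown.

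Alpha beta T cells make an alpha chain gene by joining a Trav segment to a Traj joining segment, which is then spliced to the constant gene Trac. The Trav part encodes the first and second loops of the chain that touch the peptide and its presenting molecule. Because such rearrangements differ from cell to cell, the Trav transcripts of a cell mixture depend both on how many T cells it holds and on which segments they use. In C57BL/6 mice part of the locus has been copied, so that many segments exist as an original, a D copy and an N copy. Segments with dv in their name can also join delta chain segments, so that gamma delta T cells may use them.

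Cd8a, a chain of the co-receptor by which the cells are labelled, was above 0 in every library, at 54.3 to 242 TPM in treated libraries, against 7.95 to 18.0 TPM in control libraries. The libraries held RNA of other cells as well. All 8 of 8 macrophage markers were above 0, and their summed level was 3307 to 4034 TPM in treated libraries, against 6095 to 14765 TPM in control libraries. All 8 of 8 mesothelium and epithelium markers were above 0, at a summed 817 to 1537 TPM in treated libraries, against 2152 to 2657 TPM in control libraries. In the fit across all genes described below, 1 of 8 tested macrophage markers fell, Apoe, and 6 of 7 tested mesothelium and epithelium markers fell, while 0 of either list rose, beside 7.59% of all tested genes that fell and 4.3% that rose. None of the defining markers of either list was listed at 0 throughout, and their part in the results was not tested. The 5 B cell markers summed to 200 to 309 TPM in treated libraries, against 89.4 to 286 TPM in control libraries, and Cd4 was between 0.84 and 2.16 TPM in treated libraries, against 0.40 to 1.41 TPM in control libraries. Transcripts of the mitochondrial genome made up 33.0% of TPM in the third treated library, against 13.6% to 18.3% in the other 6 libraries.

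Many Trav segments are so alike in coding sequence that a level listed for 1 may include its copies, and this limits every value of a single segment. Of the 103 segments, 98 had a coding sequence under the same name in the GENCODE M21 annotation, between 310 and 377 bases long. Of these, 81 had another Trav segment at 95% nucleotide identity or more, and 28 had an identical one. There were 32 with no stretch of 75 bases that was theirs alone. There were 14 pairs of segments that had, in the deposited values, exactly equal TPM in all 7 libraries, which leaves 89 distinct series of values. The coding sequences were identical in 13 of these 14 pairs, and the exception was Trav6d-7 with Trav6n-7 at 96.57% identity. Their annotated coding sequences differed in length, at 338 and 350 bases, and neither had a stretch of 75 bases of its own. Conversely, 1 pair with identical coding sequences, Trav12d-3 and Trav12n-3, had different values. Trav12d-3 was at 3.83 TPM in treated replicate 1 and listed at 0 in the other 6 libraries, whereas Trav12n-3 was at 5.28 TPM in treated replicate 2 and 0.69 TPM in control replicate 2.

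The stretches below show how little separates copies. Each set holds at least 1 of the 10 segments with the highest mean TPM (Trav12-2, Trav12d-2, Trav12n-2, Trav6n-6 and Trav14d-3-dv8) beside its copies, some of which were low. They are 120 coding bases each, read 5′ to 3′ on the plus strand of chromosome 14 from GENCODE M21 transcripts of build GRCm38, and capitals mark the positions at which the copies shown together differ.
Trav12-2, coding bases 131 to 250: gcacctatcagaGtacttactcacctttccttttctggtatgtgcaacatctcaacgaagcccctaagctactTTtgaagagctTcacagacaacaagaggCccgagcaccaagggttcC
Trav12d-2, coding bases 128 to 247: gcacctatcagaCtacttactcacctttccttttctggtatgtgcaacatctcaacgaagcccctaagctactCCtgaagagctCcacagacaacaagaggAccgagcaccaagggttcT
Trav12n-2, coding bases 128 to 247: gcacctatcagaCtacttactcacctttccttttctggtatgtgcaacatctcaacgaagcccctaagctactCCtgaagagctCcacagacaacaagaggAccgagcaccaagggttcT
Trav6-6, coding bases 75 to 194: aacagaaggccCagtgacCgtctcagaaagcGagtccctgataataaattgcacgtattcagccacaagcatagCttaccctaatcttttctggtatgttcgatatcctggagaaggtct
Trav6d-6, coding bases 75 to 194: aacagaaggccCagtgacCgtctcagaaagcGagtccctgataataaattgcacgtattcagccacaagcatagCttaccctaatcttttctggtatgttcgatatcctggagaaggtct
Trav6n-6, coding bases 75 to 194: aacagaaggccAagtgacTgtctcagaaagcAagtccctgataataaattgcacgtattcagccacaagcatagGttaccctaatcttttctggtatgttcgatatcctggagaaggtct
Trav14-3, coding bases 195 to 314: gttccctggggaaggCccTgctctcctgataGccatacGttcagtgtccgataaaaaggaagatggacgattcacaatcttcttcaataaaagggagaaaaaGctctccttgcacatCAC
Trav14d-3-dv8, coding bases 195 to 314: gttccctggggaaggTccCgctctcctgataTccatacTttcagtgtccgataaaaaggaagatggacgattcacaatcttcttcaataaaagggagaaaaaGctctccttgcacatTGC
Trav14n-3, coding bases 195 to 314: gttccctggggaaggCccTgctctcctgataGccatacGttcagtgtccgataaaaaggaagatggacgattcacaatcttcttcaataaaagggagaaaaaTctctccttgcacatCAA
Trav12d-2 and Trav12n-2 were identical over their whole coding sequence and had equal TPM everywhere, and Trav12-2, at 95.93% identity to them, had values of its own. Trav6-6 and Trav6d-6 were likewise an identical pair, with Trav6n-6 at 97.38% identity. The Trav14-3 copies were all distinct, at 96.68% to 97.23% identity to each other.

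The summed Trav level was higher in every treated library than in any control library. It was 222, 485 and 130 TPM in treated replicate 1, treated replicate 2 and the third treated library, against 20.4, 32.0, 14.4 and 35.0 TPM in control replicates 1 to 4. The mean was 279 ± 184 TPM in treated libraries (SD, n = 3) and 25.5 ± 9.67 TPM in control libraries (SD, n = 4), a 10.95-fold higher mean, or 6.91-fold without treated replicate 2. Treated libraries also differed widely among themselves, by 3.73-fold between treated replicate 2 and the third treated library, whereas control libraries lay within 2.42-fold of each other. In such mixed samples a larger number of T cells and more receptor RNA per T cell cannot be told apart.

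The number of segments that were seen at all followed the same order. There were 80, 93 and 72 segments above 0 in the treated libraries, against 32, 39, 23 and 41 in the control libraries. At 1 TPM or more there were 60, 77 and 40 in treated libraries, against 6, 10, 3 and 9 in control libraries. Of the 103 segments, 64 were above 0 in both groups, 39 in treated libraries only and 0 in control libraries only. Only 10 segments were above 0 in all 7 libraries, and these were Trav12-2, the pairs Trav12d-2 with Trav12n-2, Trav14d-1 with Trav14n-1 and Trav9d-3 with Trav9n-3, and Trav14d-3-dv8, Trav16n and Trav6n-6. A value of 0 in a control library is weak evidence, because the median value of a segment above 0 there was 0.53 TPM.

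**Figure D1:**
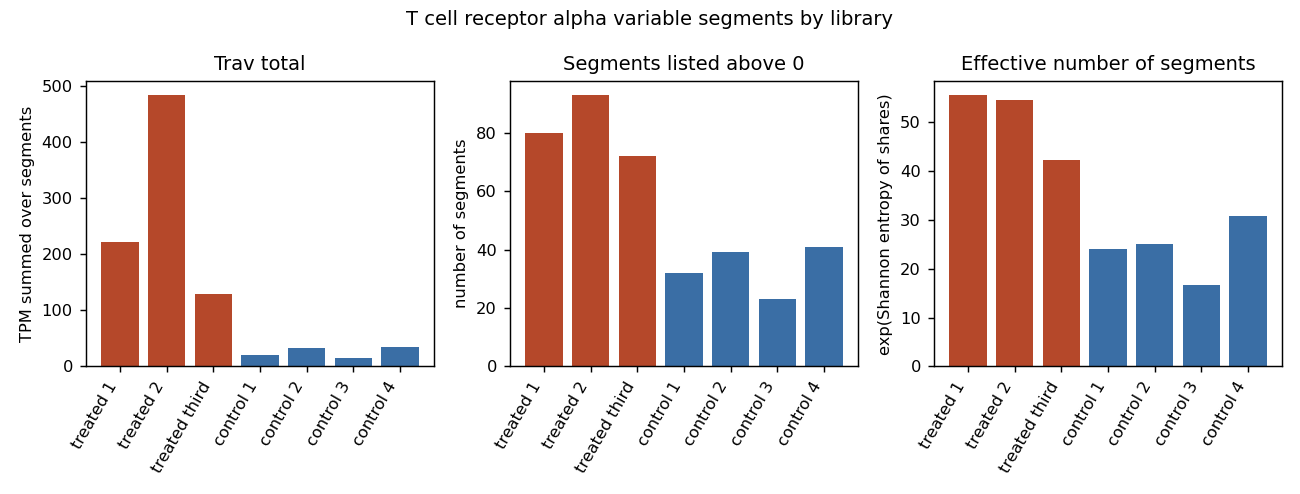
Summed TPM of the Trav segments, number of segments above 0 and effective number of segments, with 1 bar per library, the 3 treated libraries on the left and the 4 control libraries on the right. All 3 measures are higher in each treated library than in any control library, with treated replicate 2 highest in the first and second panel. The effective number cannot exceed the number of segments above 0, which in each control library is below every treated effective number.

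Single segments were mostly higher in treated libraries, and none was lower throughout. In 39 of the 103 segments, or 37.9%, every treated library lay above every control library in TPM, beside 4.33% of all 29687 symbols above 0. The reverse held for 0 of the 103, beside 14.9% of all symbols. The 103 include 14 pairs with equal values, and both members of a pair, such as Trav12d-2 with Trav12n-2, are counted here. Only 35 of the 103 reached 1 TPM in at least 3 libraries and were tested across all genes with limma on log2(TPM + 1). Of these, 29 rose and 0 fell at a Benjamini-Hochberg adjusted p under 0.05, beside 4.3% of all 14967 tested genes that rose and 7.59% that fell. None of the 35 reached 1 TPM in 3 control libraries and 30 did so in all 3 treated libraries, so the segments that could be tested had been selected by their treated level and their count supports nothing further. Without treated replicate 1, treated replicate 2 or the third treated library 19, 18 and 22 segments could be tested, of which 12, 10 and 12 were called. With no filter on low values, limma called 0 of the 103 segments, of which 63 had an unadjusted p under 0.05, beside 0.0101% of 29687 symbols called higher and 0.0135% called lower.

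Among the most abundant segments, Trav6n-6 and Trav14d-3-dv8 were high in all treated libraries. Trav6n-6 was at 5.82, 21.57 and 14.61 TPM in treated libraries, against 0.56, 0.62, 0.72 and 3.07 TPM in control libraries. It rose by a log2 fold change of 2.71 (SE 0.40, limma with Benjamini-Hochberg adjusted p = 0.000856), and its groups did not overlap. Trav14d-3-dv8, which delta chains can also use, was at 8.08, 7.21 and 9.66 TPM in treated libraries, against 1.53, 0.32, 0.37 and 0.67 TPM in control libraries. Its log2 fold change was 2.48 (SE 0.26, limma with Benjamini-Hochberg adjusted p = 0.000247), and its treated libraries were the most alike of any of the 10 segments with the highest means. Trav6n-6 and Trav14d-3-dv8 each reached 1 TPM in 3 treated libraries but only 1 control library, so they were tested because of their treated level. Without the filter on low values neither was called (limma with Benjamini-Hochberg adjusted p = 0.0713 and 0.0573).

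Some of the highest segments were high in treated replicate 2 above all. Trav12d-2 was at 2.48, 34.96 and 2.18 TPM in treated libraries, against 0.15, 0.16, 0.19 and 0.34 TPM in control libraries, and its copy Trav12n-2 had the same values. The groups did not overlap and the log2 fold change was 2.61 (SE 0.60, limma with Benjamini-Hochberg adjusted p = 0.0129), or 1.31 with a pseudocount of 5, at which it was not called (adjusted p = 0.0628). Without treated replicate 2 the pair reached 1 TPM in fewer than 3 libraries and was not tested. The pair had passed the filter on low values only through the treated libraries. Without the filter it was not called (limma with Benjamini-Hochberg adjusted p = 0.141). Trav7-3 was at 7.04, 30.62 and 1.55 TPM in treated libraries, against 0.84, 1.14, 0.00 and 2.76 TPM in control libraries. Its groups overlapped through the third treated library, and its log2 fold change was 2.14 (SE 0.62, limma with Benjamini-Hochberg adjusted p = 0.0377), or 1.21 with a pseudocount of 5 and 1.21 without treated replicate 2, neither of which was called (limma with Benjamini-Hochberg adjusted p = 0.0616 and 0.0649). Trav12-2 was at 10.37, 16.65 and 2.09 TPM in treated libraries, against 0.72, 0.39, 2.23 and 0.79 TPM in control libraries, so that control replicate 3 lay above the third treated library (log2 fold change 2.14, SE 0.46, limma with Benjamini-Hochberg adjusted p = 0.00868). That call was lost with robust variance estimation (adjusted p = 0.105), without treated replicate 1 (0.05) and without the filter on low values (0.121).

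Other abundant segments were higher in treated replicates 1 and 2 than in the third treated library. Trav6-5 was at 12.47, 11.13 and 2.95 TPM in treated libraries, against 0.00, 0.56, 0.00 and 1.69 TPM in control libraries. Trav3-3 was at 10.39, 8.15 and 2.31 TPM in treated libraries, against 0.00, 0.00, 0.47 and 0.82 TPM in control libraries. Trav3d-3, whose values Trav3n-3 shared, was at 7.01, 9.29 and 1.78 TPM in treated libraries, against 0.18, 0.57, 0.00 and 0.78 TPM in control libraries. The groups of these segments did not overlap, and they rose by log2 fold changes of 2.59, 2.46 and 2.18 (limma with Benjamini-Hochberg adjusted p = 0.00151, 0.00102 and 0.00226). Trav3-3 and Trav3d-3 had passed the filter on low values only through the treated libraries. Without the filter none of these segments was called (limma with Benjamini-Hochberg adjusted p = 0.0781, 0.0713 and 0.0809). Trav12-3 was at 4.92, 11.79 and 1.91 TPM in treated libraries, against 0.33, 0.35, 0.00 and 1.80 TPM in control libraries, and rose by 2.01 (limma with Benjamini-Hochberg adjusted p = 0.00825, or 0.0876 with robust variance estimation). It was not called without the filter (limma with Benjamini-Hochberg adjusted p = 0.116). Trav6-5 and Trav12-3 each reached 1 TPM in only 1 control library, so they too needed the treated libraries to pass the filter.

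**Figure D2:**
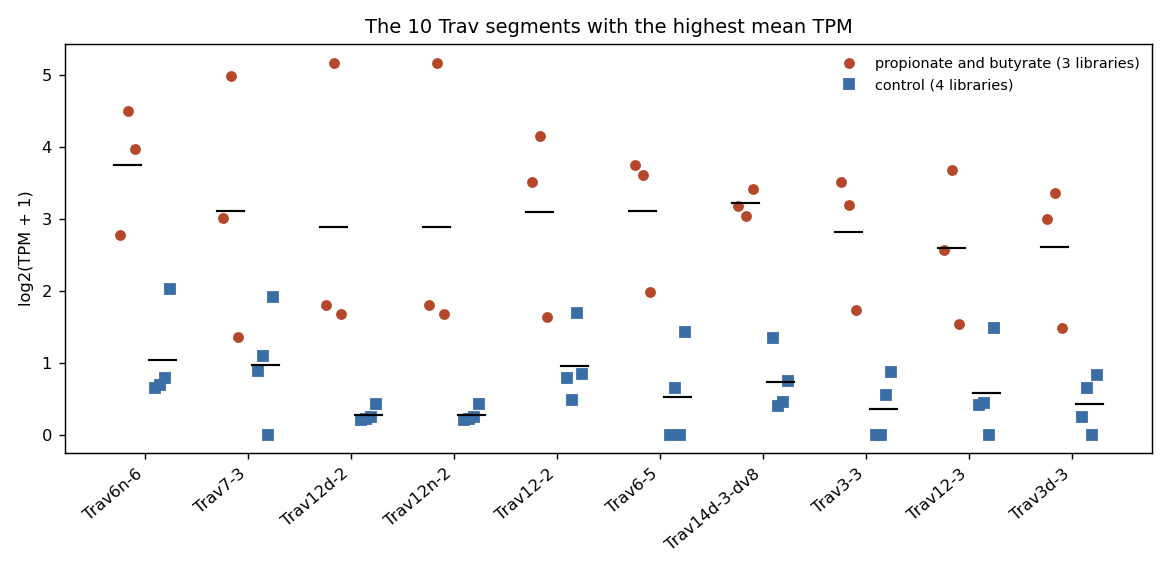
Levels of the 10 Trav segments with the highest mean TPM on a log2(TPM + 1) scale, with 1 point per library and a line at each group's mean, treated on the left and control on the right of each pair. Trav14d-3-dv8 has the tightest treated libraries, from 7.21 to 9.66 TPM, and Trav12d-2 and Trav12n-2 have identical points, with 1 treated library at 34.96 TPM.

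For segments that were listed at 0 in every control library no fold change is printed, since the fitted value depends on the pseudocount. Trav14n-3 was at 9.87, 5.99 and 2.51 TPM and Trav8n-2 at 5.58, 12.17 and 1.67 TPM in treated libraries, against 0 in all 4 control libraries. Like some other named segments, such as Trav3-3 and Trav12d-2, both had passed the filter on low values only through the treated libraries. Without it neither was called (limma with Benjamini-Hochberg adjusted p = 0.0573 and 0.0713). A further 8 segments were above 0 in all 3 treated libraries and at 0 in all 4 control libraries, and none of them reached the limit for testing. Among these, Trav6-3 was at 3.22, 8.73 and 0.76 TPM and Trav10d at 4.24, 6.55 and 0.43 TPM in treated libraries. The others, Trav1, Trav4-2, Trav9-4, Trav15d-1-dv6d-1 and the pair Trav4d-4 with Trav4n-4, stayed at or below 2.04 TPM.

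The 6 tested segments that were not called were Trav7-5, Trav14-2, Trav5-4, Trav7-2 and the pair Trav13d-2 with Trav13n-2. Trav7-5 was at 4.25, 2.76 and 1.19 TPM in treated libraries, against 0.74, 6.56, 0.00 and 1.61 TPM in control libraries, with a log2 fold change of 0.54 (limma with Benjamini-Hochberg adjusted p = 0.489). Without control replicate 2 its log2 fold change was 1.08 and it was called (adjusted p = 0.0484), and its value of 6.56 TPM there was the only one of 5 TPM or more in any control library. Trav14-2 was at 1.08, 6.20 and 1.92 TPM in treated libraries, against 0.00, 1.02, 2.37 and 0.00 TPM in control libraries, with a log2 fold change of 1.13 (limma with Benjamini-Hochberg adjusted p = 0.111). Trav5-4 was at 1.6, 3.88 and 0.56 TPM in treated libraries, against 2.08, 0.00, 0.00 and 0.00 TPM in control libraries. Trav14-2 was called without control replicate 3 (log2 fold change 1.48, adjusted p = 0.00304) and with its D and N copies summed (1.80, adjusted p = 0.0177). Each of these 3 segments held the largest share of the Trav total in a control library. Trav5-4 held 10.2% in control replicate 1, Trav7-5 held 20.5% in control replicate 2 and Trav14-2 held 16.4% in control replicate 3.

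Expressed as a share of each library's Trav total, few segments separated the groups. Shares were without overlap in 11 of the 103 segments, 10 of them higher and 1 lower in treated libraries. Beside this, among 24 segments of the receptor beta chain (Trbv), expressed as shares of the Trbv total, 4.17% were higher and 4.17% lower without overlap. Trav segments with shares without overlap numbered 21 without treated replicate 1, 19 without the third treated library and 19 without control replicate 4. Leaving out a library can only raise this count or leave it unchanged, by construction. All 10 that were higher with every library included are the segments above 0 in all treated libraries and listed at 0 in all control libraries, led by Trav14n-3 with a mean share of 2.54% ± 1.69 and Trav8n-2 with 2.10% ± 0.71 in treated libraries (SD, n = 3). The segment with lower shares was Trav16n, at 1.76%, 0.871% and 1.14% in treated libraries, against 7.75%, 2.65%, 5.61% and 1.97% in control libraries. In TPM the same segment was at 3.89, 4.22 and 1.48 in treated libraries, against 1.58, 0.85, 0.81 and 0.69 in control libraries, and rose by 1.03 (limma with Benjamini-Hochberg adjusted p = 0.0329). That call was lost without control replicate 4 (adjusted p = 0.0525), without treated replicate 1 (0.0768) or without treated replicate 2 (0.0975). It was also lost without the filter on low values (adjusted p = 0.14).

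By 1 measure of evenness the groups did not overlap, and by the others they did. The effective number of segments, the number of equally used segments that would give the same Shannon entropy, was 55.7, 54.6 and 42.3 in treated libraries, against 24.1, 25.04, 16.7 and 30.8 in control libraries. It averaged 50.9 ± 7.42 in treated libraries (SD, n = 3) and 24.1 ± 5.80 in control libraries (SD, n = 4). The 5 largest segments together held 23.1%, 28.6% and 36.3% of the Trav total in treated libraries, against 40.7%, 42.2%, 50.9% and 35.0% in control libraries, so that the third treated library lay above control replicate 4. The largest segment alone held 5.63%, 7.21% and 11.2% in treated libraries, against 10.2%, 20.5%, 16.4% and 8.78% in control libraries, which also overlapped. The effective number cannot exceed the number of segments above 0, which was 32, 39, 23 and 41 in control libraries. No control library could therefore have reached the lowest treated value of 42.3, and this lack of overlap gives no separate result on evenness. These measures moved with the Trav level and with the number of segments above 0, and the part of the level in them was not tested. When D and N copies were summed, the difference in effective number between the group means was 10.5 instead of 26.7, and that in the mean share of the largest segment turned from -5.94 to 1.08 percentage points. The Trbv segments, with larger levels of 241 to 851 TPM in treated libraries and 29.6 to 63.3 TPM in control libraries, had effective numbers of 12.6 to 17.6 in treated and 10.2 to 15.7 in control libraries, which overlapped.

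Libraries of the same group were not alike in segment use. Between a pair of treated libraries, 38.0% to 49.7% of the Trav total was placed on different segments, against 64.0% to 78.2% between a pair of control libraries. Between a treated and a control library the figure was 49.5% to 70.7%, so that libraries of different groups were no further apart than control libraries were from each other. With segments summed to families the ranges were 18.8% to 26.6% between treated libraries, 26.6% to 42.6% between control libraries and 24.9% to 43.8% across groups. Control libraries had Trav totals of 14.4 to 35.0 TPM over 23 to 41 segments above 0. Treated libraries had 130 to 485 TPM over 72 to 93 segments. The part of the low control level in these differences was not tested, and no test of the differences was made.

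**Figure D3:**
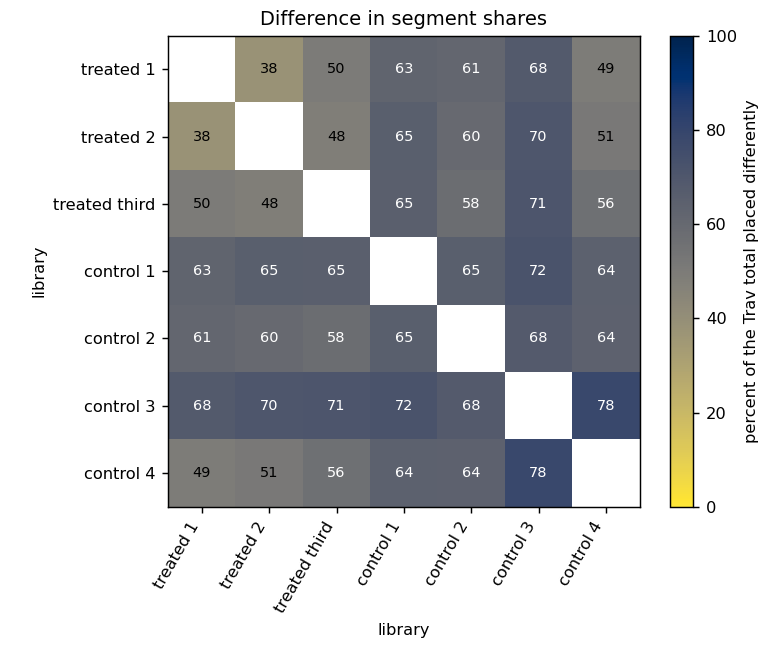
Percent of the Trav total that each pair of libraries placed on different segments, with treated libraries first and control libraries last on both axes. Pairs of treated libraries differ by 38.0% to 49.7%, pairs of control libraries by 64.0% to 78.2% and mixed pairs by 49.5% to 70.7%.

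The segments with large shares differed between treated libraries. The pair Trav12d-2 and Trav12n-2 together held 14.4% of the Trav total in treated replicate 2, against 2.24% in treated replicate 1 and 3.35% in the third treated library. In control libraries the pair held 1.00% to 2.63%. Trav9d-3 and Trav9n-3 were each at 13.40 TPM in treated replicate 2, beside 1.2 TPM in treated replicate 1 and 0.32 TPM in the third treated library. Trav6n-6 held the largest share in the third treated library, 11.2%, and also in control replicate 4, 8.78%. Trav6-5 held the largest share in treated replicate 1, 5.63%, and held 4.84% in control replicate 4. Of 58 segments above 0 in all treated libraries, the highest treated share was more than 3 times the lowest in 28 and less than 2 times in 17.

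By family, 14 of the 20 Trav families had every treated library above every control library in summed TPM, and 0 the reverse, beside 4.33% and 14.9% of all 29687 single symbols. The Trav6 family, with 13 segments, was at 38.5, 74.8 and 43.4 TPM in treated libraries, against 2.26, 5.21, 1.48 and 8.13 TPM in control libraries. It was the largest family in the third treated library, with 33.4% of the Trav total. The Trav12 family, with 9 segments, was at 24.5, 109 and 10.2 TPM in treated libraries, against 1.35, 2.47, 2.61 and 3.69 TPM in control libraries. Trav14, also with 9 segments, was at 33.8, 50.6 and 20.2 TPM in treated libraries, against 4.59, 2.78, 4.06 and 2.82 TPM in control libraries.

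Family shares were without overlap in 4 of the 20 families, 3 of them listed at 0 in every control library, beside 4.17% higher and 4.17% lower among single Trbv segments. The Trav13 family, with 12 segments, held 6.45%, 5.94% and 6.65% of the Trav total in treated libraries, against 13.3%, 11.2%, 11.2% and 17.02% in control libraries, without overlap. Its summed level was 14.3, 28.8 and 8.65 TPM in treated libraries, against 2.72, 3.59, 1.61 and 5.95 TPM in control libraries, so the level and the share differed in opposite directions. The Trav8 family, with 5 segments, held 4.01%, 4.14% and 2.75% in treated libraries, against 0 in all 4 control libraries. Its summed level was 8.89, 20.1 and 3.57 TPM in treated libraries. Trav1 and Trav11, with 1 and 2 segments, were also at 0 in all control libraries and held at most 1.00% in any treated library. The Trav7 family varied most between control libraries, with 20.0%, 36.9%, 3.67% and 15.0%, against 11.0%, 12.8% and 11.1% in treated libraries.

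**Figure D4:**
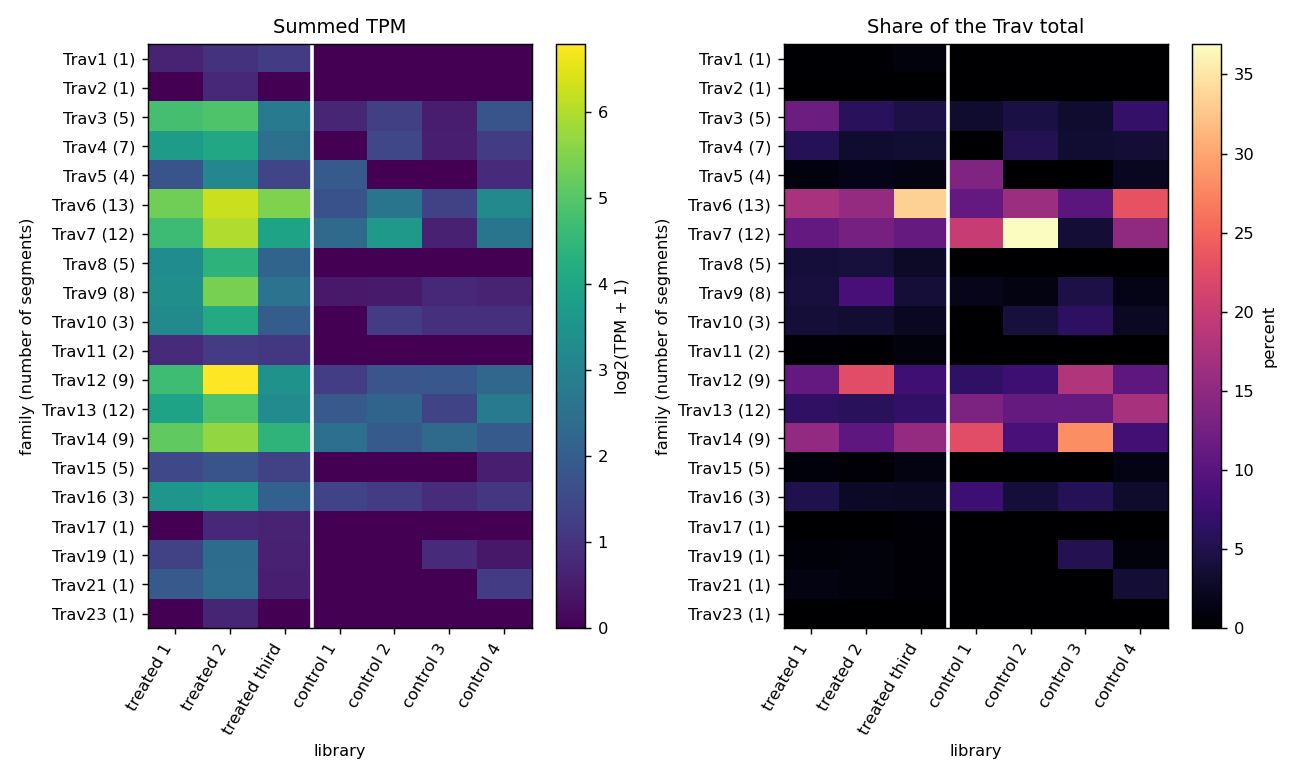
Summed level of each Trav family on a log2(TPM + 1) scale and its percent share of the Trav total, with 1 column per library, treated libraries left of the white line and control libraries right of it, and the number of segments in brackets. The Trav8 family is at 0 in all 4 control libraries, and the Trav13 family holds 5.94% to 6.65% in treated libraries, against 11.2% to 17.02% in control libraries.

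Shares of the copied parts of the locus did not separate the groups. Segments without a copy letter, 46 of the 103, held 48.6%, 42.0% and 43.9% of the Trav total in treated libraries, against 44.2%, 64.8%, 55.2% and 48.7% in control libraries. The 33 D copies held 27.9% to 31.2% in treated libraries, against 18.7% to 29.2% in control libraries, and the 24 N copies held 23.5% to 29.7% in treated libraries, against 15.4% to 26.6% in control libraries. The groups overlapped in each class. All 103 segments lay on chromosome 14 in the RefSeq annotation of GRCm38.p6, and in that order the 35 segments farthest from the joining segments held 23.9% to 26.1% in treated libraries, against 16.1% to 25.6% in control libraries. The 34 nearest to them held 29.5% to 40.4% in treated libraries, against 33.4% to 55.2% in control libraries.

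The 10 segments that can also serve delta chains summed to 21.5, 30.4 and 19.9 TPM in treated libraries, against 3.97, 0.86, 0.37 and 4.01 TPM in control libraries. Their share of the Trav total was 9.72%, 6.26% and 15.3% in treated libraries, against 19.5%, 2.68%, 2.56% and 11.5% in control libraries, and overlapped. Trav6-7-dv9 was at 3.45, 6.96 and 6.34 TPM in treated libraries, against 0.50, 0.54, 0.00 and 0.55 TPM in control libraries, and rose by 2.21 (SE 0.27, limma with Benjamini-Hochberg adjusted p = 0.000414). It had passed the filter on low values only through the treated libraries. Without the filter it was not called (limma with Benjamini-Hochberg adjusted p = 0.0573). Trav4-4-dv10 and Trav21-dv12 rose by 1.5 and 1.33 (limma with Benjamini-Hochberg adjusted p = 0.00807 and 0.0455). The call of Trav21-dv12 was lost with median-of-ratios scaling (adjusted p = 0.0658) and that of Trav4-4-dv10 without the third treated library (0.0506). Without the filter neither was called (limma with Benjamini-Hochberg adjusted p = 0.191 for Trav21-dv12 and 0.0909 for Trav4-4-dv10). Trav16d-dv11 was at 3.18, 3.52 and 0.00 TPM in treated libraries and at 0 in control libraries. Trav13-4-dv7 was at 0.55, 2.24 and 0.00 TPM in treated libraries, against 1.94 TPM in control replicate 1 and 0 in the other control libraries. The 4 Trav15 segments with dv in their name stayed at or below 1.65 TPM. Trdc, the delta constant gene, was at 0.62, 1.78 and 0.45 TPM in treated libraries, against 0.21, 0.20, 1.28 and 0.20 TPM in control libraries. Of the gamma and delta constant genes 3 could be tested and 2 rose, beside 4.3% of all genes, Trgc2 by 2.20 and Trgc4 by 1.73 (limma with Benjamini-Hochberg adjusted p = 0.00208 and 0.00151), while Trgc1 had a log2 fold change of 0.88 (adjusted p = 0.128).

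Trav11, the segment of invariant natural killer T cells, was listed at 0 in all 7 libraries, as was its joining partner Traj18. All 60 Traj symbols were listed at 0 in every library, so the joining segments give no information here. The N copy Trav11n was at 0.80 TPM in treated replicate 1 and at 0 elsewhere. The D copy Trav11d was at 1.31 TPM in treated replicate 2 and 1.13 TPM in the third treated library, and at 0 elsewhere. The coding sequence of Trav11d was 99.71% identical to that of Trav11 and had no stretch of 75 bases of its own. A level listed for 1 of them may therefore include the other, and the 0 of Trav11 is weak evidence. Trav1, the segment of mucosal-associated invariant T cells, was at 0.61, 1.00 and 1.30 TPM in treated libraries, against 0 in control libraries. The segment Trav10 was at 1.89, 3.85 and 2.60 TPM in treated libraries, against 0.00, 1.32, 0.00 and 0.90 TPM in control libraries, and rose by 1.35 (limma with Benjamini-Hochberg adjusted p = 0.0157, or 0.0844 without the third treated library). Without the filter on low values Trav10 was not called (limma with Benjamini-Hochberg adjusted p = 0.114).

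The partner chains of the receptor rose with the segments. Of 10 genes for constant regions, CD3 chains and co-receptors, 9 rose and 0 fell, beside 4.3% of all genes that rose, with a median log2 fold change of 2.82. Trac, the constant gene to which Trav segments are spliced in alpha chains, was at 156, 376 and 73.3 TPM in treated libraries, against 27.9, 34.5, 30.3 and 28.3 TPM in control libraries, and rose by 2.39 (SE 0.38, limma with Benjamini-Hochberg adjusted p = 0.00125). Trbc1, Trbc2, Cd3d, Cd3e, Cd3g, Cd247, Cd8a and Cd8b1 rose by 2.45 (Cd247) to 3.17 (Trbc1). Cd4, the co-receptor of helper T cells, had a log2 fold change of 0.47 (limma with Benjamini-Hochberg adjusted p = 0.25).

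The Trav total differed more between the groups than Trac did. The Trav total was 1.43, 1.29 and 1.77 times the Trac level in treated libraries, against 0.730, 0.928, 0.477 and 1.24 times in control libraries, without overlap though by a narrow margin. Mean Trac was 6.66-fold higher in treated libraries, whereas the mean Trbv total was 10.43-fold and mean Cd8a 9.68-fold higher. Without treated replicate 2 these ratios were 3.78 for Trac, 6.64 for the Trbv total and 5.92 for Cd8a. Set against the Trbv total, the Trav total was 0.574, 0.569 and 0.540 times as large in treated libraries and 0.449, 0.634, 0.487 and 0.552 times in control libraries. Set against Cd8a, it was 1.97, 2.00 and 2.40 times in treated libraries and 1.31, 2.16, 1.82 and 1.94 times in control libraries. Both of these ratios overlapped between the groups.

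**Figure D5:**
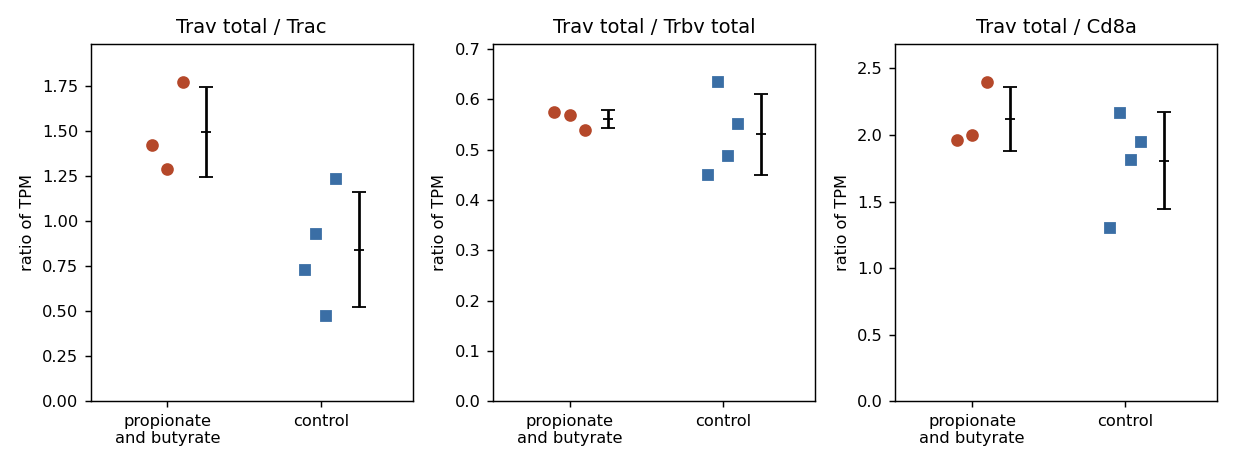
Trav total divided by Trac, by the Trbv total and by Cd8a, with 1 point per library, treated on the left and control on the right, and the mean with its SD beside the points. Only the ratio to Trac is without overlap, at 1.29 to 1.77 in treated libraries, against 0.477 to 1.24 in control libraries.

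Genes of receptor gene recombination, which assembles Trav and Traj segments in the thymus, were low or not called. Rag1, a subunit of the recombinase, was at or below 0.02 TPM and Rag2, the other subunit, was listed at 0 in every library. Ptcra, the surrogate alpha chain of thymocytes, was at or below 0.13 TPM. Dntt, which adds bases at the joints, was at 0.37, 0.41 and 0.15 TPM in treated libraries, against 0.14, 0.07, 0.00 and 0.08 TPM in control libraries. Of 11 genes in this list 7 could be tested, and 0 passed in limma in either direction, beside 4.3% of all genes higher and 7.59% lower, with 0 higher and 2 lower at an unadjusted p under 0.05. These 2 were Nhej1 and Xrcc6, general DNA end-joining genes, with log2 fold changes of -0.66 and -0.43 (limma with Benjamini-Hochberg adjusted p = 0.0559 and 0.16).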

How the data were processed

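Levels were read as TPM, which the authors deposited for 149132 transcript rows in 7 libraries. The submitters' processing notes list fastp, HISAT2 and StringTie and build mm39; which of them gave TPM was not stated. TPM keeps no depth, so intervals and detection floors are left out. Columns were matched to samples by name; 1 treated column has a number that no treated sample carries and was used as the third treated library, without a number.

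TPM was summed per symbol (56422 symbols; 1001 rows without a symbol, 0.307% to 0.618% of TPM, were left out). Genes with TPM of at least 1 in at least 3 libraries were fitted on log2(TPM + 1), a scale that understates changes of low genes, in R 4.3.3 with limma 3.58.1, an intensity trend and Benjamini-Hochberg adjustment over all 14967 genes. Totals, shares and evenness were described without a test. On simulated data for the propionate and butyrate against control comparison with 14967 genes, the fit called 47.5% of genes with a simulated log2 rise of 1, 97.5% of those with 2, and 7 of 14767 unchanged genes. The rises were given only to genes with a mean log2(TPM + 1) above 3. No Trav segment had a mean that high, so these rates do not describe the segments. Alternatives changed the pseudocount, filter, scaling, variance model, replicate block and counting of copies, and left out each library. Sequences and identities (edlib) came from GENCODE M21 (GRCm38), whose build differs from the authors', so no genome coordinates are given.

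The segments, lists and tests were chosen with earlier results of these data known. Segments named with values are the 10 highest by mean TPM, the largest share in each library, up to 10 with shares without overlap, the 5 largest rises (0 segments were called lower), and Trav11, Trav11d, Trav1, Trav10 and segments with dv in their name. The largest rises, by fitted log2 fold change, were Trav6n-6, Trav14n-3, Trav8n-2, Trav12d-2 and Trav12n-2; Trav14n-3 and Trav8n-2 were listed at 0 in all control libraries, so their fitted values are not printed. Others were named after their values were seen.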

Additional observations from a re-analysis of the deposited data

Results flagged for a closer look

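In several segments 1 control library stood far from the other 3, by the gap to its nearest neighbour as a share of the range of the 4 control libraries. Chance alone gives about 1 such case in 20 groups, and many of these are segments listed at 0 in the other 3 libraries. Trav6n-6 (gap 0.936 of the range) was at 3.07 TPM in control replicate 4, against 0.56 to 0.72 TPM in the other control libraries. Trav5-4 and Trav13-4-dv7 (each 1 of the range) were above 0 only in control replicate 1, at 2.08 and 1.94 TPM. Trav15d-2-dv6d-2, Trav21-dv12 and Trav4-4-dv10 (each 1 of the range) were above 0 only in control replicate 4, at 0.24, 1.28 and 1.27 TPM. Trav6-7-dv9 (0.909) was listed at 0 in control replicate 3, against 0.50 to 0.55 TPM in the other control libraries. The summed delta variable segments (Trdv, 0.88) were at 5.59 TPM in control replicate 3, against 0.35 to 0.98 TPM in the other control libraries. The summed macrophage markers (0.904) were at 14765 TPM in control replicate 3, against 6095 to 6927 TPM in the other control libraries, and the same library had the lowest Trav total, 14.4 TPM.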

How the results depend on the processing

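The number of Trav segments called higher was 29, and it was 0 without a filter on low values, 2 of 2 tested at a TPM of at least 5, 19 with robust variance estimation and 10 to 30 when each library was left out. Leaving out a treated library lowers the number tested by construction, since 3 libraries at 1 TPM must then include a control library. There were 12 of 19 called without treated replicate 1, 10 of 18 without treated replicate 2 and 12 of 22 without the third treated library. Under the other alternatives it was 21 to 29, and it was 0 for calls lower under every alternative run. The number tested also differed, at 26 with D and N copies summed and 41 with TPM rescaled without mitochondrially encoded genes, against 35. Median-of-ratios scaling moved the median log2 fold change of all genes from -0.24 to -0.02. It raised the genes called higher from 643 to 1292, among them 28 of 40 tested Trav segments, against 29 of 35. With it 1009 genes were called lower, against 1136. The difference in mean log2 Trav totals was 3.33, with 2.82 to 3.77 when each library was left out and 3.44 to 3.58 under other scalings. The ratio of mean Trav totals, 10.95, was 6.91 without treated replicate 2 (left out after the data were seen). The difference in effective number, 26.7, was 10.5 with D and N copies summed, 10.4 over segments at 1 TPM in 3 libraries and 24.2 to 31.0 when each library was left out. The share of the largest segment was lower in treated libraries by a difference of -5.94 percentage points, -7.67 to -3.78 when each library was left out, and reversed to 1.08 with D and N copies summed; the cause was not tested. Segments with shares without overlap numbered 11, 3 over segments at 1 TPM in 3 libraries and 12 to 21 when each library was left out, among them 21 without treated replicate 1, 19 without the third treated library and 19 without control replicate 4. By construction, leaving out a library cannot lower this count. The 9 receptor partner genes stayed at 9 under every alternative run for them. They were not counted under the other filters on low values. Without a filter only 3 of 29687 symbols were called higher, so most of the 9 were not called there. Of 20 named segments with a fitted fold change, 0 changed direction, and 17 lost their call without the filter. Summing segments with equal values, chosen after the data were seen, gave 26 of 32 called. With replicate numbers 1 and 2 as a replicate block 21 Trav segments were called higher, and Trav16n and Trav10 were not (limma with Benjamini-Hochberg adjusted p = 0.101 and 0.0917). The deviations of same-numbered libraries correlated at -0.019 and -0.09, so the numbers were not taken as a pairing. Unknown depth limits every statement about a segment listed at 0.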
